A study of Caenorhabditis elegans with 3 samples.

Results

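The cuticlin and cuticlin-like genes of Caenorhabditis elegans were taken as the genes whose symbol begins with cut- or cutl-. On the array, 40 of 22625 probe sets carried 1 such symbol, and they covered 34 of the 17118 genes with a probe set of their own. Current gene names list 35 members, and cutl-23 was not analysed here. The study exposed wild-type N2 young adult hermaphrodites, synchronized and aged 3 days, to multiwall carbon nanotubes, fibres made of nested cylinders of carbon. The groups were untreated worms at 0 h, worms kept for 4 h with nanotubes and worms kept for 24 h with nanotubes, at 1 mg/L in a potassium and sodium salt medium at 20 °C. Each group was 1 Affymetrix array of whole-worm RNA, so there was no spread between replicates and no test across samples. Arrays of worms kept as long without nanotubes were not analysed here, so nanotubes, time in the medium and age cannot be told apart. The number of worms behind each array is not given in the sources used here.

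Cuticlins are the part of the nematode cuticle that stays insoluble when the collagens are dissolved with detergent and reducing agent. The epidermis secretes them in the course of each moult, and they are cross-linked through tyrosine residues. Most members carry a zona pellucida domain, a module by which extracellular proteins polymerize, and CUT-2 is a cuticlin without one. Several zona pellucida cuticlins form the alae, the longitudinal ridges over the seam cells, at particular stages.

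Values are normalized probe set intensities in arbitrary units. To each intensity 32 was added before log2 ratios and folds were taken, so changes of dim genes are understated. As a background floor served 67.8, the top value of 8 controls for yeast and bacterial transcripts that the worm lacks. Where 1 of 2 values lay under it, the fold is given as "at least" against the floor. Levels were not compared between genes, except in summed intensities of gene lists, which add different probe sets and lean on the brightest. Each gene was read from the brightest of its probe sets with 1 symbol. A probe set whose annotation repeats cutl-8 was thereby left out. It was at 42.6 at 0 h, 39.3 at 4 h, then 58.7 at 24 h, under the floor throughout. The probe set read for cutl-8 was at 27.8, 26.4 and 27.8 over the same times. The median intensity was 101.8 on the 0 h array, 100.2 on the 4 h array and 102.8 on the 24 h array. Yolk and oocyte genes of adult hermaphrodites were above the floor on every array, 5 of 5 and 6 of 6. The 5′ to 3′ signal ratio of 4 of 4 control transcripts was higher at 4 h and at 24 h than at 0 h, by medians of 0.32 and 0.56 on the log2 scale.

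Few members were measured above background. Above the floor were 10 of 34 genes at 0 h (29.4%), 11 at 4 h (32.4%) and 15 at 24 h (44.1%). Over all genes the shares were 58.0%, 57.4% and 58.1%. Of the members, 10 were above the floor on every array, 5 on some and 19 on none. The genes under the floor on every array were cut-6, cutl-1 to cutl-9, cutl-11 to cutl-13, cutl-17, cutl-19, cutl-21, cutl-22, cutl-25 and cutl-27. A ratio between values under the floor gives the sign of a difference in intensity and no measured change of the transcript. Such values cannot be told from background. In bulk RNA, fewer epidermal cells or animals with active genes and less RNA in each cannot be told apart.

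**Figure D1:**
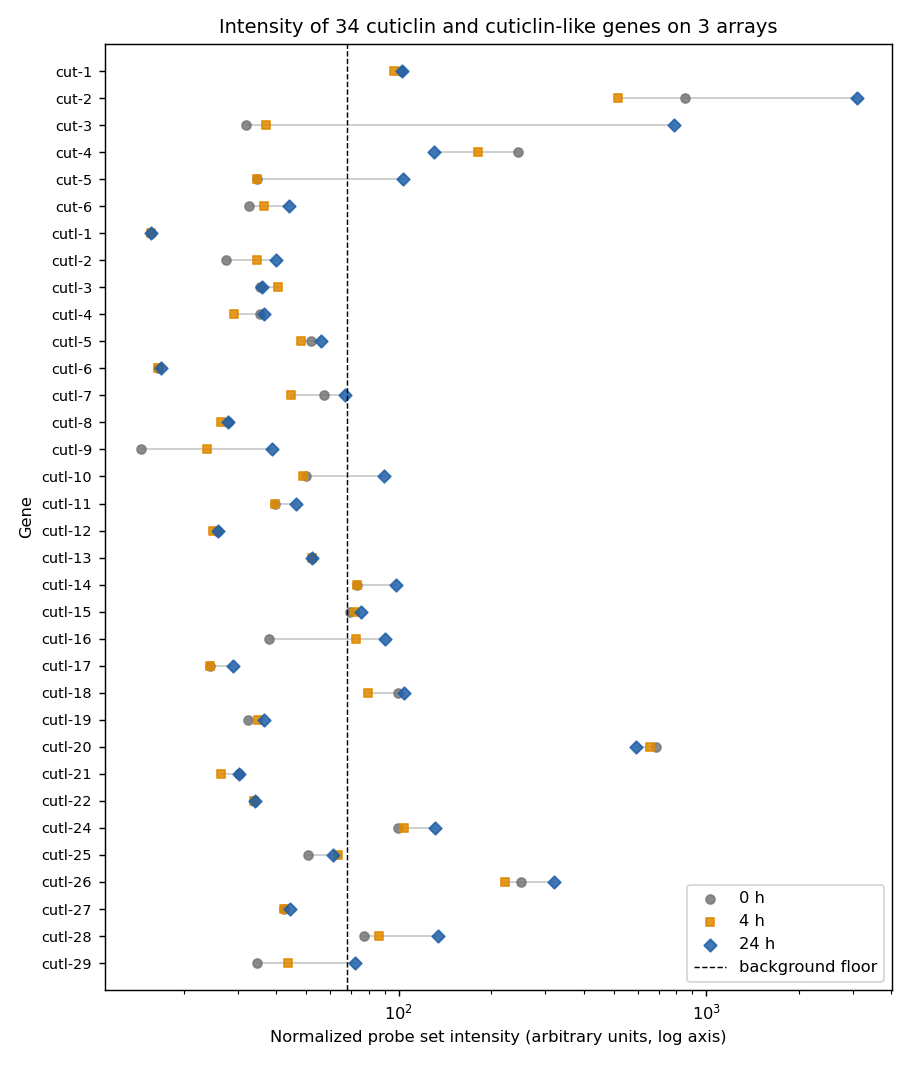
Normalized intensity (arbitrary units, log axis) of the probe set read for each of the 34 genes at 0 h (grey circles), 4 h (orange squares) and 24 h (blue diamonds), 1 array each, with the background floor of 67.8 as a dashed line. The widest gaps between arrays belong to cut-2 and cut-3, both highest at 24 h, and most cutl- genes lie under the floor.

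The gene cut-3 encodes a zona pellucida cuticlin known to be needed for the alae of the first larval stage. Its intensity was 31.9 at 0 h, 37.2 at 4 h, then 785 at 24 h. It was under the floor on the 0 h and 4 h arrays and above it at 24 h. At 24 h it was at least 8.19-fold higher than at 0 h, and by the same bound at least 8.19-fold higher than at 4 h. The probe set is one that the manufacturer names _s_, which can hybridise with transcripts of related genes. It passed a filter on dim probe sets, which kept 8634 genes, only through its value at 24 h.

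CUT-2, the cuticlin without a zona pellucida domain, is a cross-linked component of the outer cuticle. Its gene had an intensity of 855 at 0 h, 515 at 4 h, then 3085 at 24 h. It was lowest at 4 h and highest at 24 h. The log2 ratio was -0.70 at 4 h against 0 h, 1.81 at 24 h against 0 h and 2.51 at 24 h against 4 h. In folds, cut-2 was 1.62-fold lower at 4 h than at 0 h, 3.52-fold higher at 24 h than at 0 h and 5.70-fold higher at 24 h than at 4 h. With bacterial hybridisation controls as the scale, which shifted the median of all genes by 0.41 at 4 h and 0.60 at 24 h against 0 h, the ratios of cut-2 were -0.28 at 4 h and 2.41 at 24 h against 0 h and 2.69 at 24 h against 4 h. Of the 8634 genes that passed the filter, 11 had a higher ratio than cut-2 at 24 h against 4 h, and 89 at 24 h against 0 h. Between the brightest probe sets of a gene that passed the filter, a ratio varied with an SD taken over 1830 genes. This SD was 0.24 for 4 h against 0 h, 0.47 for 24 h against 0 h and 0.29 for 24 h against 4 h. It is a root mean square with no mean removed, so it includes any shift between brighter and dimmer probe sets. All 3 ratios of cut-2 as deposited exceeded that SD, which covers differences within an array and not differences between cultures. Its single probe set is named _x_ and is open to cross-hybridisation.

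The cuticlin gene cut-4 was lower on the later arrays as deposited. Its intensity was 245 at 0 h, 181 at 4 h, then 131 at 24 h, so each later array was lower than the one before. The log2 ratio was -0.38 at 4 h against 0 h and -0.77 at 24 h against 0 h, a 1.70-fold lower value that stayed inside the 2-fold threshold. Lower ratios than that of cut-4 were found for 1085 of the 8634 genes at 24 h against 0 h. Under scaling on the hybridisation controls the ratio of cut-4 became 0.03 at 4 h and -0.17 at 24 h.

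The other cuticlins with known roles in alae were dim. The gene cut-5, needed for alae of the first larval stage and of the dauer, the arrested larva, was at 34.6 at 0 h, 34.6 at 4 h, then 103 at 24 h. Only the 24 h value was above the floor, which puts cut-5 at least 1.35-fold higher at 24 h than at either earlier time. The first cuticlin gene described, cut-1, serves the dauer alae and was at 101.8 at 0 h, 96.4 at 4 h, then 102.8 at 24 h. In (intensity + 32) the arrays differed by at most 1.05-fold. The gene cut-6, which encodes a zona pellucida protein of the dauer cuticle, was at 32.6, 36.5 and 43.9 at 0 h, 4 h and 24 h, under the floor throughout.

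**Figure D2:**
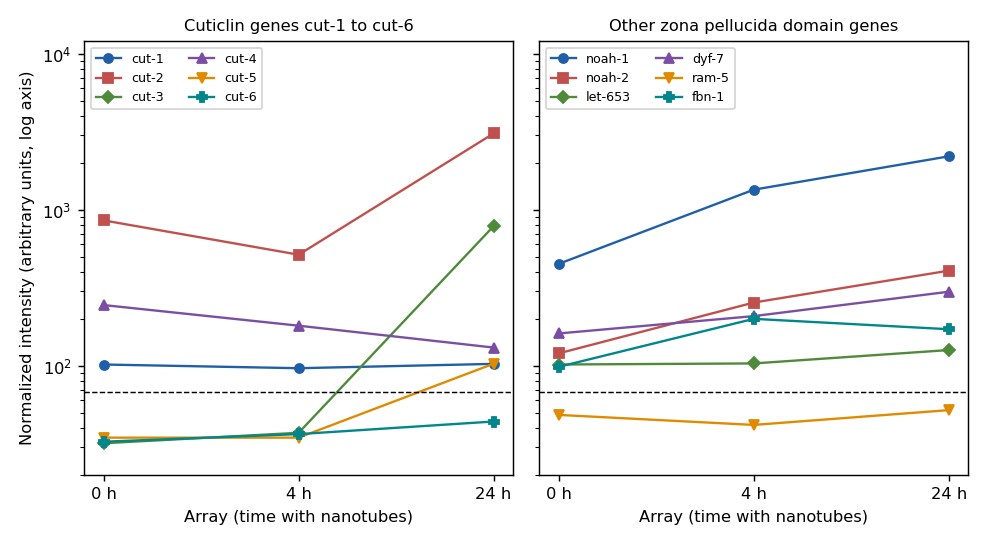
Normalized intensity (arbitrary units, log axis) on the 0 h, 4 h and 24 h arrays for cut-1 to cut-6 (left) and for 6 other zona pellucida domain genes (right), 1 probe set a gene, with the background floor as a dashed line. The gene cut-3 is under the floor at 0 h and 4 h and at 785 at 24 h, cut-4 is lower on each later array, and noah-1 is higher on each later array.

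Among the cuticlin-like genes, which are named for sequence similarity to cuticlins, no gene reached 2-fold in any comparison. Most of them were under the floor on every array, so no fold could be measured for those. Without the filter, 2.99% of all genes were higher and 4.67% lower by 2-fold at 24 h against 0 h. These shares were 0.952% and 1.88% at 4 h against 0 h, and 1.33% and 1.68% at 24 h against 4 h. With shares this small, the absence of such a gene is not read as stability. Intensities of cutl-26 were 251 at 0 h, 222 at 4 h, then 320 at 24 h. Its ratios were -0.15 at 4 h and 0.32 at 24 h against 0 h, and 0.47 at 24 h against 4 h. Scaling on the hybridisation controls gave 0.26 at 4 h and 0.92 at 24 h against 0 h, where all genes shifted by 0.41 and 0.60. Intensities of cutl-24 were 99.7, 104 and 132 at 0 h, 4 h and 24 h (0.31 at 24 h against 0 h). Its other probe set, at 95.0, 95.0 and 121, gave 0.27. The gene cutl-28 was at 77.2 at 0 h, 86.3 at 4 h, then 135 at 24 h, 1.53-fold higher at 24 h than at 0 h. Its neighbour in the genome with 1 protein-coding gene between them is cutl-26. Of these ratios at 24 h against 0 h as deposited, that of cutl-28, 0.61, was above the SD between probe sets. Those of cutl-24 and cutl-26 were below it. At 24 h against 4 h, the 0.47 of cutl-26 was above the SD of 0.29. The SD comes from probe sets that passed the filter, which that of cutl-28 did not. The genes cutl-14, cutl-15 and cutl-18 were also above the floor on all arrays, with folds of at most 1.24 in any comparison.

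The probe sets of cutl-20, 4 in number, differed in direction. The brightest was at 685 at 0 h, 657 at 4 h, then 591 at 24 h, and the next at 282, 264 and 264. The dimmer pair was at 77.2, 89.5 and 124 and at 58.3, 70.9 and 83.8 over the same times. The ratios at 24 h against 0 h were therefore -0.20 and -0.09 for the brighter probe sets and 0.52 and 0.36 for the dimmer. The 0.36 has its 0 h value under the floor, so that probe set was at least 1.16-fold higher. Only the brightest of the 4 is not named _x_ or _s_, the names open to cross-hybridisation. Over the array, 1830 genes had several probe sets that passed the filter on dim probe sets. In 78.6% of them the brighter one had the lower ratio at 24 h against 0 h, with a mean difference of -0.35 over all 1830. The part of this relation in the members' ratios was not tested. Scaling on the hybridisation controls put the brightest probe set of cutl-20 at a ratio of 0.40 at 24 h against 0 h, above 0 but below the shift of all genes.

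Several dim cuticlin-like genes crossed the floor by 24 h. The gene cutl-10 was at 50.1 at 0 h, 48.7 at 4 h, then 89.6 at 24 h. Over the same times cutl-29 was at 34.7, 43.7 and 72.1 and cutl-16 at 37.9, 72.4 and 90.5, above the floor from 4 h. With cut-3 and cut-5 these made 5 of 34 members above the floor at 24 h and under it at 0 h, and 0 went the opposite way. Over all genes 3.0% went up through the floor and 2.94% went down. Against the floor, cutl-10 was at least 1.22-fold, cutl-16 at least 1.23-fold and cutl-29 at least 1.04-fold higher at 24 h than at 0 h. The other probe set of cutl-29 was at 13.0 at 0 h, 13.8 at 4 h and 13.8 at 24 h, so it did not cross the floor. The probe set of cutl-10 is named _s_ and is open to cross-hybridisation.

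In counts, the comparison of 4 h with 0 h found no member past 2-fold. Of the 34 genes 6 passed the filter on dim probe sets, a mean log2 value at or above the median of all probe sets, 7.09, and they were cut-2, cut-3, cut-4, cutl-20, cutl-24 and cutl-26. Just inside it lay cutl-24 with a mean log2 value of 7.16 and just outside it cut-1 with 7.05. At 4 h 0 of these 6 were higher and 0 lower, against 1.71% and 3.25% of all genes that passed. Their median ratio was -0.10, against 0.00 for all genes that passed. Of all 34 members 12 had a ratio above 0, 13 below 0 and 9 had identical values at 4 h and 0 h. Over all genes the shares were 36.9%, 35.4% and 27.7%, close to those of the members.

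At 24 h against 0 h 2 of the 6 genes, cut-2 and cut-3, were higher by 2-fold and 0 were lower, against 5.32% and 7.96% of all genes that passed. As cut-3 is among the 6 only through its 24 h value, the filter fixed part of this count and of the median, and nothing is read from their distance to all genes. The median ratio of the 6 was 0.31, also with cut-3 at its bound, against 0.00 for all genes that passed. Both higher genes were read by _x_ or _s_ probe sets, and when these were left out 0 of the 3 members left were higher. With a pseudocount of 1, or with background subtraction, cut-3 did not pass the filter and the count was 1 of 5. Over all 34 genes without the filter, with values under the floor raised to it, cut-2 and cut-3 were again the 2 higher and 0 were lower, against 2.77% and 4.17% of all genes.

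**Figure D3:**
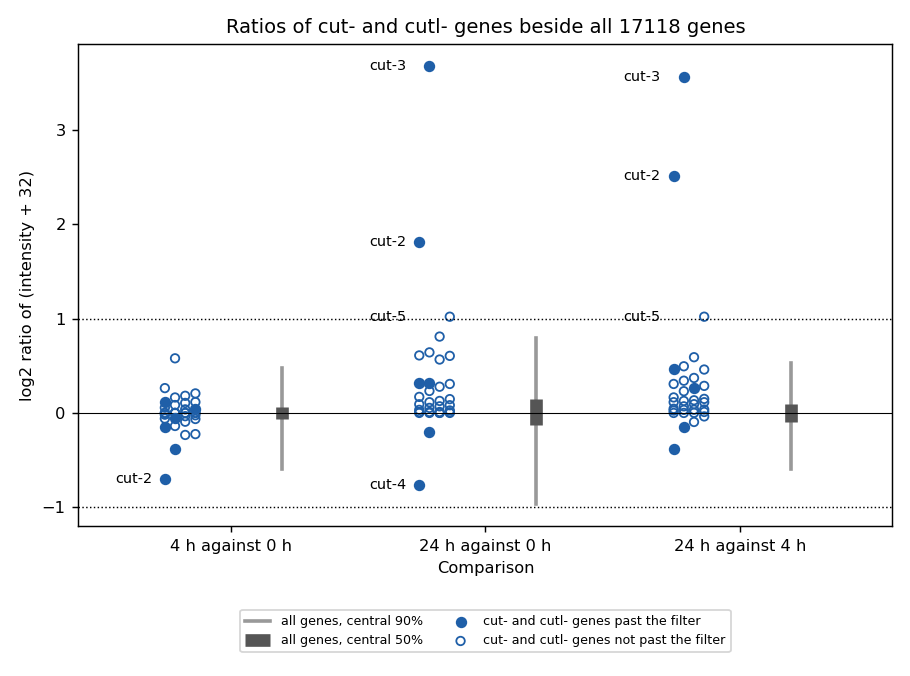
Log2 ratios of (intensity + 32) of the 34 genes in each comparison (filled points passed the filter, open points did not), beside the range of all 17118 genes as bars for the central 90% and the central 50%. Dotted lines mark 2-fold. In both comparisons of 24 h cut-2 and cut-3 lie above 2-fold, and at 4 h against 0 h no member is past 2-fold. The genes cut-3 and cut-5 were under the floor before 24 h, so their points are drawn beyond their bounds. Drawn at 3.68 and 3.56, cut-3 was at least 8.19-fold higher. Drawn at 1.02, cut-5 was at least 1.35-fold higher.

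Small differences ran mostly upward at 24 h. Of the 34 members 28 had a ratio above 0 at 24 h against 0 h (82.4%), 2 below 0 and 4 identical values, against 46.2%, 36.1% and 17.7% of all genes. The ratios below 0 were those of cut-4 and cutl-20. Most of these ratios came from values under the floor, and some were hardly above 0, such as 0.007 for cutl-12 and 0.0015 for cutl-22. The counts are thus of signs and not of measured differences. The median over the 34 was 0.10, against 0.00 for all genes. Among the 28 members that did not pass the filter, 24 had a ratio above 0 and 0 below, against 47.5% and 23.5% of all such genes. After a loess trend on brightness was removed, 21 of 34 members (61.8%) had a ratio above 0, against 44.5% of all genes. Under quantile normalization the count was 24 (70.6%), against 46.9%, and under scaling on the hybridisation controls 33 (97.1%), against 89.8%.

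**Figure D4:**
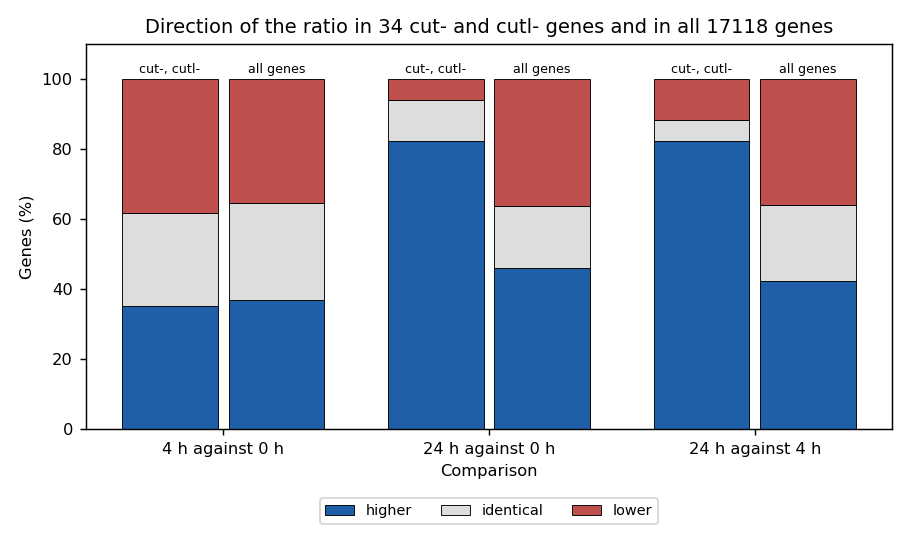
Share of genes (%) with a higher, identical or lower value in each comparison, for the 34 cut- and cutl- genes (left bar of each pair) and all 17118 genes (right bar). At 4 h against 0 h 35.3% of the members against 36.9% of all genes were higher, and 82.4% of the members against 46.2% of all genes were higher at 24 h against 0 h.

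At 24 h against 4 h the higher genes by 2-fold were again cut-2 and cut-3, 2 of the 6, with 0 lower, against 2.28% and 3.22% of all genes that passed, and the 24 h value of cut-3 bears on this count in the same way. Of the 34 members 28 had a ratio above 0, 4 below 0 and 2 identical values, against 42.4%, 35.9% and 21.7% of all genes. The comparisons of 24 h share an array, so their counts are not independent. Over the 3 times in order, 10 of 34 members were higher at each step and 2 lower at each step, against 20.2% and 18.8% of all genes. Identical values on all 3 arrays were found for cutl-1 and cutl-13.

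Other genes of the cuticle matrix, of its processing, of moulting and of seam cells were read from lists outside the family. The counts below are of genes that passed the filter, of which over the whole array 1.71% were higher and 3.25% lower by 2-fold at 4 h against 0 h, 5.32% and 7.96% at 24 h against 0 h, and 2.28% and 3.22% at 24 h against 4 h. With 3 to 12 genes a list, a single gene is a larger share than these. Of the list and marker genes named below, noah-2, bli-3, mlt-9, mlt-11, nhr-23, dpy-7, lpr-3, egg-6 and hch-1 were read by _x_ or _s_ probe sets. Such probe sets are open to cross-hybridisation. Of 6 other zona pellucida domain genes, 5 passed the filter, and 1 was higher at 4 h and 2 at 24 h than at 0 h, with 0 lower. The gene noah-1, for an epidermal matrix protein needed in moulting and embryos, was at 450 at 0 h, 1344 at 4 h, then 2199 at 24 h (2.21 at 24 h against 0 h). Its relative noah-2 was at 120, 254 and 407 over the same times (1.53 at 24 h against 0 h). Unlike cut-2 and cut-3, noah-1 was already past 2-fold at 4 h, with a ratio of 1.51. Between 24 h and 4 h, 0 of the 5 reached 2-fold. The median of the 5 was 0.83 at 4 h and 0.77 at 24 h against 0 h.

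Of 16 genes for cross-linking and processing of cuticle proteins, 12 passed the filter. At 4 h 0 were higher or lower, and at 24 h 1 was higher than at 0 h and 0 lower (median 0.04). The higher one was kpc-1, for a furin-like convertase, at 1439 at 24 h against 690 at 0 h (1.03). The dual oxidase gene bli-3, whose product drives tyrosine cross-linking, was at 127 at 0 h, 136 at 4 h, then 130 at 24 h. The convertase gene bli-4, which acts on cuticle collagens, was at 1496, 1174 and 1010 over the same times (-0.55 at 24 h against 0 h). Lower ratios than that of bli-4 were those of dpy-31 (-0.86) and dpy-18 (-0.80) at 24 h against 0 h. Of the 12 genes, 8 had a ratio above 0 in that comparison.

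Of 13 moulting cycle genes, 11 passed, and 3 were higher at 24 h than at 0 h with 0 lower (median 0.57). They were the protease inhibitor gene mlt-11 (2.00), the nuclear receptor gene nhr-25 (1.32) and mlt-9 (1.01). At 4 h 0 of the 11 were past 2-fold, and at 24 h against 4 h 3 were higher, acn-1 (1.36), mlt-9 (1.24) and mlt-11 (1.11). The gene nhr-23, for a nuclear receptor that drives moulting, was at 192 at 0 h and 191 at 4 h and 24 h. Of 5 furrow collagen genes with a probe set of their own 1 was higher at 24 h than at 0 h, dpy-7, at 501 against 234 (1.00), and 0 were lower (median -0.15). Of 3 other early apical matrix genes that passed, 2 were higher at 24 h than at 0 h, the lipocalin gene lpr-3 (1.42) and sym-1 (1.11), and lpr-3 was also higher than at 4 h (1.39). The third, egg-6, for a leucine-rich repeat protein, went the other way, at 3656 at 0 h, 2714 at 4 h, then 2015 at 24 h (-0.85 at 24 h against 0 h). The summed intensity of all 5 genes of that list, most of it from egg-6, was 4219 at 0 h, 3371 at 4 h, then 3460 at 24 h. Neither the furrow collagens nor these genes had a member past 2-fold at 4 h. Of 3 seam cell genes that passed, 0 were past 2-fold in any comparison, and their median was 0.66 at 24 h against 0 h.

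Some markers of embryos, which adult hermaphrodites carry, were higher at 24 h as well. Of 10 zygotic embryo genes 5 passed, and 2 were higher at 24 h than at 0 h with 0 lower. They were hch-1, for the hatching enzyme, at 592 against 99.7 (2.24), and ceh-22, at least 2.23-fold higher. The summed intensity of the 10 genes was 774 at 0 h, 1095 at 4 h, then 1514 at 24 h. Without hch-1 the other 9 summed to 674, 768 and 923 over the same times. The ratios of end-1 and end-3 at 24 h against 0 h were 0.14 and 0.27. The markers pes-1, tbx-37, tbx-38 and hlh-1 were under the floor on all arrays. Oocyte genes summed to 29969, 31729 and 30746 over the same times, and none of the 6 reached 2-fold. Of 5 yolk genes 1 was past 2-fold, vit-1, lower at 24 h than at 0 h (-3.28). Of 5 sperm genes that passed, 5 were lower at 24 h than at 0 h (median -2.42). The part of embryos or of other tissues in the values of cut-2 and cut-3 was not tested.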

How the data were processed

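The authors' deposited table gives normalized linear intensities for 1 array per time, ranging from 9.08 to 31806. Affymetrix Expression Console 1.1, MAS5 and RMA are named, with neither role nor order, per the submitters' processing notes. Each probe set took its symbol from GEO's annotation of the array, and 20701 of 20766 probe sets with 1 gene were updated through the gene ID to WBcel235 names. The log2 scale was applied after adding 32 to the deposited intensities. Probe sets with a mean log2 value at or above the median (7.09) were kept, the brightest per gene, giving 8634 genes.

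With 1 array per group no test was possible, so genes were described by a 2-fold threshold and precision is limited by the number of arrays. The members, lists and alternatives were chosen with earlier results of these data known. Named genes were members past 2-fold, those with the highest intensity at 0 h, and up to 4 list genes past 2-fold per comparison. Others were named after their values were seen. Scripts were tested on simulated data. Alternatives are given in the closing section. No sequences were analysed. Python 3.11.15, numpy 2.4.6, pandas 2.3.3 and statsmodels 0.14.6 were used.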

Additional observations from a re-analysis of the deposited data

Results flagged for a closer look

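The ratio against 0 h had opposite signs at 4 h and at 24 h for 2 of the 6 members that passed the filter. For cut-2 it was -0.70 at 4 h and 1.81 at 24 h. For cutl-26 it was -0.15 at 4 h and 0.32 at 24 h, both smaller than the SD between probe sets. Each value rests on 1 array, both comparisons share the 0 h array, and the difference was not tested.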

How the results depend on the processing

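The values came from 1 array per time, and ratios of values under the floor carry a sign and no measured change. Of 156 recomputed counts and medians of the members, 136 stayed near the value given, within 1.5 times for a count or within the SD between probe sets for a median. Part of them could hardly move. The 2-fold counts that were 0 stayed at 0 in every setting but the 1.5-fold threshold. Each 0 against 0 was taken as near. Median centring subtracted medians at or near 0, and among members past the filter the mean and the dimmest of probe sets changed only cutl-20. The rule for counts also takes 3 against 2 and 21 against 28 as near. At 1.5-fold, 1 member was lower at 4 h and 1 at 24 h against 0 h. With a filter at the 75th percentile 2 members were left, with medians of -0.38 at 4 h and 0.81 at 24 h against 0 h and 1.18 at 24 h against 4 h, and 1 was higher in each comparison of 24 h. The count was also 1 in both with background subtraction and with a pseudocount of 1, where cut-3 failed the filter. Without _x_ and _s_ probe sets 3 members were left, 0 were higher in either, and the medians were -0.20 at 24 h against 0 h and -0.15 at 24 h against 4 h. Scaling on hybridisation controls gave medians of 0.31 at 4 h and 0.91 at 24 h against 0 h, relative to shifts of all genes of 0.41 and 0.60, and turned 5 single ratios above 0, those of cut-4 and cutl-26 at 4 h against 0 h and that of cutl-20 in all 3 comparisons. Members with a ratio above 0 at 4 h numbered 21 under quantile normalization, 20 after the loess step and 33 under control scaling, where 54.7%, 54.6% and 92.1% of all genes were above 0. For the 2-fold counts above at other thresholds, filters, pseudocounts and probe sets, shares of all genes are not given, so nothing is read from them. Without the filter the count of higher members was 3 in each comparison of 24 h. Over all genes the shares were 2.99% at 24 h against 0 h and 1.33% at 24 h against 4 h. The third member was cut-5, whose earlier values lie under the floor. With values under the floor raised to it the count was 2, against 2.77% and 1.22% of all genes. This floor setting, the sum without hch-1, the alternatives for members above 0 and median centring were chosen after seeing the data. No paired analysis was possible because each group has 1 array.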
